A study of Mus musculus with 16 samples.

Results

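Cells read methylated CpG through proteins that bind it and pass the signal to complexes that silence chromatin. Methyl-CpG binding domain proteins and zinc-finger proteins of the Kaiso family recognise the methylated base and recruit histone deacetylases and remodellers. Parallel routes lay down and read methylation of histone H3 at lysine 9 (the HP1 proteins are its readers) or mark and compact chromatin through the Polycomb repressive complexes PRC2 and PRC1. The gene list described here was chosen by name, with earlier results of these data known. It holds 34 methyl-CpG binding, H3K9, HP1, Polycomb and co-repressor genes. Of these, 32 were measured among the 22180 genes of the series, each by its brightest probe set (the probes summarised as 1 value). The H3K9 methyltransferase genes Suv39h1 and Suv39h2 had no probe set with 1 symbol in the annotation used and are not analysed here.

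Levels were measured on 16 Affymetrix arrays of mouse bone marrow progenitors, 4 in each of 4 groups, and values are log2 levels as deposited. The sorted cells were MDPs, progenitors of macrophages and dendritic cells, and cMoPs, the common monocyte progenitors, taken from mice aged 8 to 12 weeks that were either Dnmt1+/+ (control) or Dnmt1c/chip. Every sample was gated as Lin-, cKit-high, CD115+ and CD11b-, with MDPs Ly-6C- and cMoPs Ly-6C+. The Dnmt1 gene encodes the DNA methyltransferase that copies methylation at replication, and c/chip joins a null allele (c) with a hypomorphic one (chip), in all cells of the animal. The labels do not say whether the 4 arrays of a group are separate animals, so p-values measure the spread between these samples only. The comparisons ask how reduced Dnmt1 relates to the repressor genes in each progenitor, and how MDPs and cMoPs differ in them within each genotype.

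Dnmt1 itself was measured first. In control MDPs its level was 9.82, 9.81, 9.86 and 9.95 on the 4 arrays, and in c/chip MDPs it was 8.89, 8.36, 8.97 and 8.79. In control cMoPs it was 9.80, 9.66, 9.80 and 9.86, and in c/chip cMoPs it was 8.82, 8.69, 9.004 and 8.98. Every c/chip array lay below every control array in both progenitors. The difference was -1.10 (SE 0.137, adjusted p = 3.48e-04 by limma) in MDPs and -0.91 (SE 0.137, adjusted p = 0.0081) in cMoPs, with n = 4 arrays per group.

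Markers showed that the 4 groups differed in more than Dnmt1. Ly6c2, which encodes the Ly-6C antigen of the gate, averaged 10.20 in control MDPs, 11.27 in c/chip MDPs, 12.04 in control cMoPs and 12.12 in c/chip cMoPs. Kit averaged 8.78 to 9.26 and Csf1r (CD115) 8.56 to 9.32 over the 4 groups, and Itgam (CD11b) 5.98 to 6.61. Among c/chip MDPs, replicates 1, 3 and 4 held both Xist, the transcript of the inactive X (9.51 to 10.65), and Y-linked transcripts (mean of 3 genes 5.27 to 6.42). Leaving them out leaves 1 c/chip MDP array, replicate 2, and a value without them compares that single array, with the spread taken from the other groups. That array had low Xist (4.26) and Y-linked transcripts (6.73). Controls of both progenitors had high Xist on replicates 1 and 2 and low Xist on 3 and 4. In c/chip cMoPs Xist was high on replicate 1 (10.90) and low on replicates 2 to 4 (4.33 to 5.16). In c/chip against control MDPs 1.95% of all genes passed the test. Neutrophil granule genes were called higher for 5 of 9 (mean over the list 8.85 to 10.55 against 7.18 to 8.70). Erythroid and megakaryocyte genes were called higher for 5 of 8 (5.89 to 7.27 against 4.37 to 5.21). Mast and basophil genes were called higher for 5 of 6 (6.58 to 7.90 against 5.18 to 5.94). Every difference in these lists was positive, called or not. Lymphoid genes were called lower for 2 of 7 (3.48 to 4.18 against 4.61 to 5.00). Dendritic cell genes were called lower for 3 of 7 (5.30 to 5.61 against 6.29 to 6.87), and 6 of the 7 differences were negative. Of the 7 lymphoid differences 3 were positive and 4 negative, with a median of -0.09. The lower list mean went with Dntt (8.94 in control and 4.25 in c/chip MDPs) and Il7r (6.06 and 2.89). In cMoPs the genotype test called 0 genes of these 5 lists and 0.113% of all genes. All 7 dendritic cell differences there were negative, with list means of 4.86 to 5.20 in c/chip and 5.03 to 5.57 in control cMoPs. The largest was that of Flt3, which averaged 6.28 in control and 5.08 in c/chip cMoPs. The part of these marker differences in the results below was not tested. In bulk samples fewer cells of a type and less RNA per cell cannot be told apart.

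Most of the repressor genes start in CpG-rich sequence. RefSeq start sites on GRCm38.p6 were found for 31 of the 34 genes, with 41 starts, and CpG dinucleotides were counted over 300 bases, from 250 before to 50 after each start. Taking the window with most CpGs for each gene, the count ran from 11 to 41 with a median of 29, against a median of 8 over all 27025 genes in the table. At least 15 CpGs stood in 30 of 31 genes (96.8%), against 37.1% of all genes. Methylation was not measured, so the sequence is given only as the CpG content of these starts.
Shown in lower case with each CpG in capitals are the starts of Atrx, the gene with the fewest CpGs and the smallest p in MDPs, of Ring1, which was higher on every c/chip MDP array, and of Zbtb4, which had the largest difference between cMoPs and MDPs.
Atrx: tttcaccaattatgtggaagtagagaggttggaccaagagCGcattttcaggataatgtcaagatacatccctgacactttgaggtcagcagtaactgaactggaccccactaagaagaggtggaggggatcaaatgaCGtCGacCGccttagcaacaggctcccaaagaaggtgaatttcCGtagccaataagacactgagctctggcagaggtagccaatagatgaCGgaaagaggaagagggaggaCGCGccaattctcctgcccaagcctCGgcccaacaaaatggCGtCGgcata
Ring1: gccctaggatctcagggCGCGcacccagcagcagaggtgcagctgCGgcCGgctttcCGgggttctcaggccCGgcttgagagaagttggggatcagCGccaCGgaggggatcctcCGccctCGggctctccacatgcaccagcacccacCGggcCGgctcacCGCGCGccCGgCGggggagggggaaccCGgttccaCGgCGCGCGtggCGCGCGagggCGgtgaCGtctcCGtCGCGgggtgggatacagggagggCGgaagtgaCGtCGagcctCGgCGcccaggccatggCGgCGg
Zbtb4: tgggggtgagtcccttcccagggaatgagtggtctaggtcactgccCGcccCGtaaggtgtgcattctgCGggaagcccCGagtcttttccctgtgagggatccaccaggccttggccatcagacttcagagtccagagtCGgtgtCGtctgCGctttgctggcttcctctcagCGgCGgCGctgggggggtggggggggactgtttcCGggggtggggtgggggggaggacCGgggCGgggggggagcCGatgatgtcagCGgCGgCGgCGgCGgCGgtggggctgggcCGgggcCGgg
The Atrx window (chrX:105929323-105929622, minus strand) holds 11 CpGs. The Ring1 window (chr17:34024631-34024930, minus strand) holds 37, and the Zbtb4 window (chr11:69765662-69765961, plus strand) holds 22.

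In MDPs no repressor gene passed the test for genotype. The 2 largest differences in each direction were higher Zbtb38 and Ring1 and lower Atrx and Smchd1 in c/chip MDPs. Zbtb4 (0.49) and Bmi1 (0.46) were also larger in size than Atrx (-0.44). Of the 32 genes, 0 passed the limma test at an adjusted p of 0.05, where 1.95% of all genes did. At an unadjusted p under 0.05 there were 7 of 32 (21.9%), against 14.3% of all genes. Differences ran from -0.44 to 0.75, with a median of -0.05 (all genes 0.03), and 14 were positive and 18 negative. The 95% interval lay within a 2-fold change in either direction for 30 of the 32 genes, the exceptions being the readers Zbtb4 and Zbtb38. The difference needed to pass depended on a gene's spread and ran from 0.46 to 1.63 over the 32 genes, with a median of 0.60. A difference smaller than its gene needed could not be called with 4 arrays a group.

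**Figure D1:**
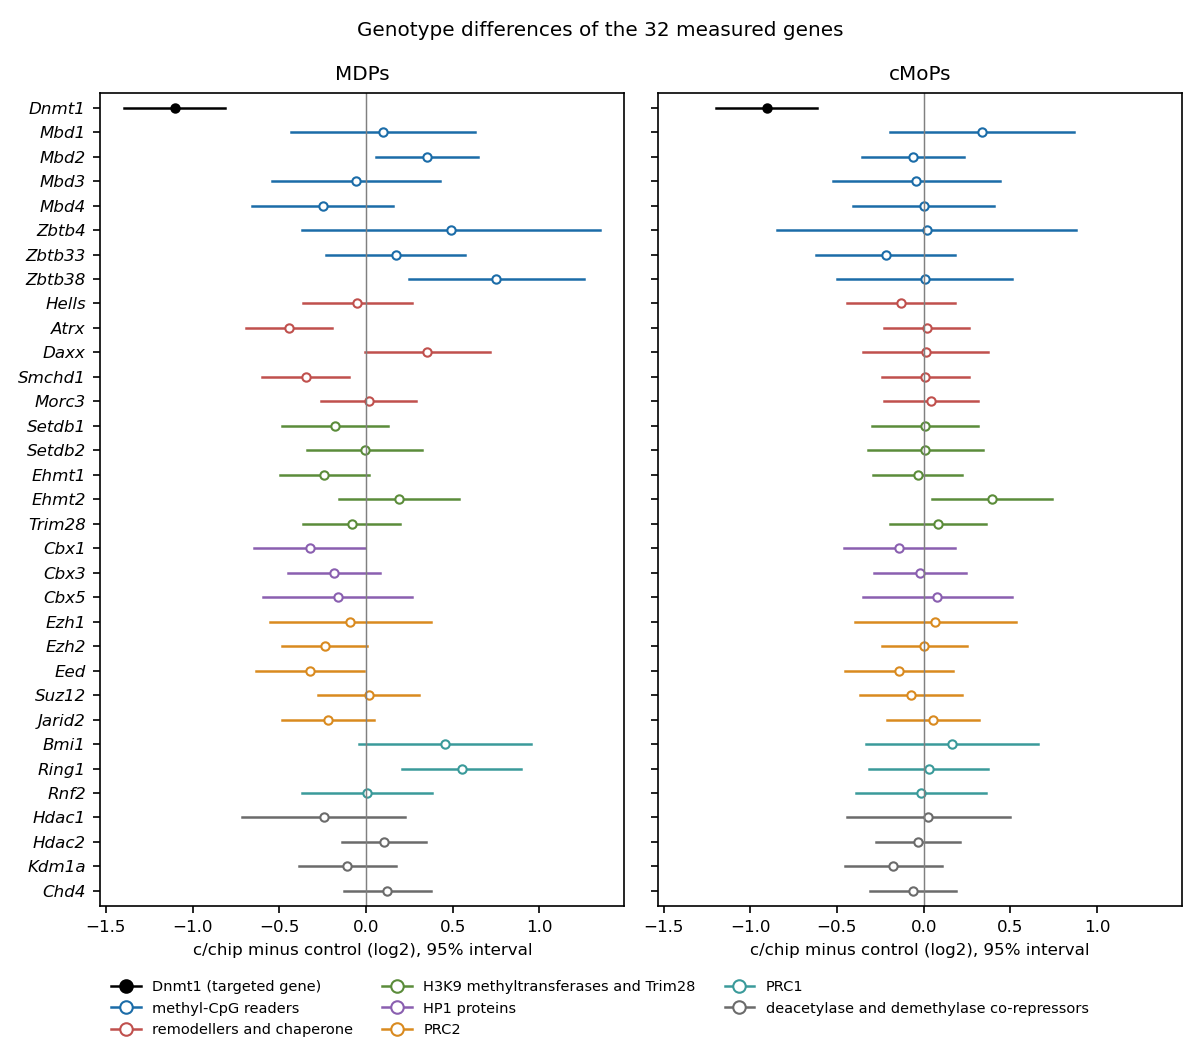
Difference between Dnmt1c/chip and control arrays (log2, x axis) for Dnmt1 and the 32 repressor genes (y axis, coloured by role) in MDPs and cMoPs. Points are means of 4 against 4 arrays, bars are 95% intervals, and open points did not pass the test. Dnmt1 stands at -1.10 and -0.91, while the repressor genes lie between -0.44 and 0.75 in MDPs and between -0.22 and 0.39 in cMoPs.

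Among the methyl-CpG readers, 5 of 7 differences in MDPs were positive, with a median of 0.17. Zbtb38, a zinc-finger protein of the Kaiso family, stood at 5.51, 5.96, 5.06 and 6.42 in control MDPs and at 7.01, 6.31, 6.36 and 6.28 in c/chip MDPs. The groups overlapped, because control replicate 4 lay above 3 of the 4 c/chip arrays. The difference was 0.75 (SE 0.239, interval 0.25 to 1.26, adjusted p = 0.1274 by limma), and without that control array it was 0.98 (adjusted p = 0.0399). That was the 1 call in 27 alternatives, over which the Zbtb38 difference ran from 0.53 to 0.98. Among c/chip MDPs, replicate 1 (7.01) stood far above the other arrays (nearest 6.36). Mbd2, which recruits the NuRD deacetylase complex to methylated DNA, stood at 8.15, 8.27, 7.84 and 7.84 in controls and at 8.44, 8.42, 8.13 and 8.52 in c/chip MDPs. Its difference was 0.35 (interval 0.06 to 0.65, adjusted p = 0.2396), with 1 c/chip array inside the control range. Mbd1, a reader that also carries CXXC zinc fingers, differed by 0.10, Zbtb33 (Kaiso) by 0.17, Mbd3, a NuRD subunit of the family, by -0.06, and Mbd4, a glycosylase for T:G mismatches at CpG, by -0.25. Zbtb4, a further Kaiso relative, differed by 0.49 with an interval of -0.37 to 1.35 and a range of 0.10 to 0.88 over the alternatives. Arrays of both MDP groups reached down to the array medians (3.43 to 3.62), so its size is uncertain.

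Atrx and Smchd1, which act at heterochromatin and on the inactive X respectively, had the largest negative differences in MDPs. Atrx, a remodeller that deposits histone H3.3 with Daxx, stood at 8.67, 8.88, 8.77 and 8.63 in control MDPs and at 8.33, 8.22, 8.39 and 8.23 in c/chip MDPs. Every c/chip array lay below every control array, and the difference was -0.44 (SE 0.117, 1.36-fold, interval -0.69 to -0.20, adjusted p = 0.0641 by limma). Atrx passed under 2 alternatives, quantile normalization (-0.50, adjusted p = 0.0475) and a trended robust fit (adjusted p = 0.0381). Against c/chip MDP replicate 2, the single array of that group without the mixed signal, the difference was -0.52. Atrx lies on the X chromosome, and those arrays hold the mixed Xist and Y-linked signal given above. The part of that signal in the Atrx difference was not tested.
Smchd1, an SMC-family ATPase needed to keep genes silent on the inactive X, stood at 8.92, 8.73, 8.71 and 8.95 in controls and at 8.61, 8.44, 8.50 and 8.38 in c/chip MDPs. These groups did not overlap either, and the difference was -0.35 (SE 0.119, 1.27-fold, interval -0.60 to -0.10, adjusted p = 0.1607 by limma). Daxx, the H3.3 chaperone, differed by 0.35, so that it and its partner Atrx had differences of opposite sign. Hells, the remodeller that opens DNA to methylation, differed by -0.05, and Morc3, an ATPase that silences repeats, by 0.02.

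The H3K9 pathway and its readers gave small differences in MDPs, mostly below 0. Of the H3K9 methyltransferases, Setdb1 differed by -0.18, Setdb2 by -0.01, and the G9a pair split, with Ehmt1 at -0.24 and Ehmt2 at 0.19. Trim28, the co-repressor that brings Setdb1 to zinc-finger proteins, differed by -0.08. By the brightest probe set, all 3 HP1 genes had negative differences, with a median of -0.18. These were Cbx1 (HP1 beta) at -0.32, Cbx3 (HP1 gamma) at -0.18 and Cbx5 (HP1 alpha) at -0.16. The 4 probe sets of Cbx3 disagreed in sign, at -0.18, -0.31, 0.04 and -0.11.

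Of the 8 listed Polycomb genes, Ring1 separated the groups, as 7% of all genes did, and the other 7 gave overlapping arrays. In PRC2, which methylates H3 at lysine 27, 4 of 5 differences were negative: the catalytic subunits Ezh1 and Ezh2 stood at -0.09 and -0.24, the core subunits Eed and Suz12 at -0.32 and 0.01, and the targeting subunit Jarid2 at -0.22. In PRC1, which ubiquitinates histone H2A, all 3 differences were positive, with Rnf2 (the main ligase) at 0.01 and Bmi1, whose arrays lay near the array medians, at 0.46. Among 20 further Polycomb genes, 16 had negative differences, PRC1 subunits such as Pcgf2 (-0.76), Pcgf5 (-0.36) and Rybp (-0.41) among them, and 0 passed, so the sign is not shared across the complex. Ring1, the partner ligase of Rnf2, stood at 5.93, 6.03, 5.60 and 5.60 in control MDPs and at 6.49, 6.20, 6.44 and 6.25 in c/chip MDPs. All c/chip arrays lay above all controls, with a difference of 0.55 (SE 0.163, 1.47-fold, interval 0.21 to 0.90, adjusted p = 0.0986 by limma). The difference was 0.36 over replicates 1 and 2 and 0.75 over replicates 3 and 4. No label ties replicate numbers between groups, and the Xist and Y-linked signal of these replicates differed between the genotypes. Among the deacetylase and demethylase co-repressors, Hdac1 differed by -0.24, its paralog Hdac2 by 0.10, the H3K4 demethylase Kdm1a by -0.11 and the NuRD remodeller Chd4 by 0.12.

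Set against c/chip MDP replicate 2 alone, without the 3 arrays of mixed signal, the difference kept its sign for 26 of the 32 genes and turned for 6. Zbtb33, a gene of the X chromosome like Atrx, went from 0.17 to -0.30. Mbd1 went from 0.10 to -0.22 and Setdb1 from -0.18 to 0.13. The other sign changes (Hdac2, Morc3 and Rnf2) were between values near 0. Daxx moved from 0.35 to 0.13, Ezh2 from -0.24 to -0.04, Hdac1 from -0.24 to -0.03, Cbx1 from -0.32 to -0.13 and Kdm1a from -0.11 to -0.01. Larger sizes were found for Mbd4 (-0.55), Jarid2 (-0.41), Cbx3 (-0.35), Cbx5 (-0.42) and Ezh1 (-0.39). Zbtb38 stood at 0.57, Ring1 at 0.41 and Smchd1 at -0.39 against that array.

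Groups without overlap numbered 3 of the 32 in MDPs, namely Atrx, Smchd1 and Ring1. That is 9.38%, against 7% of all genes.

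**Figure D2:**
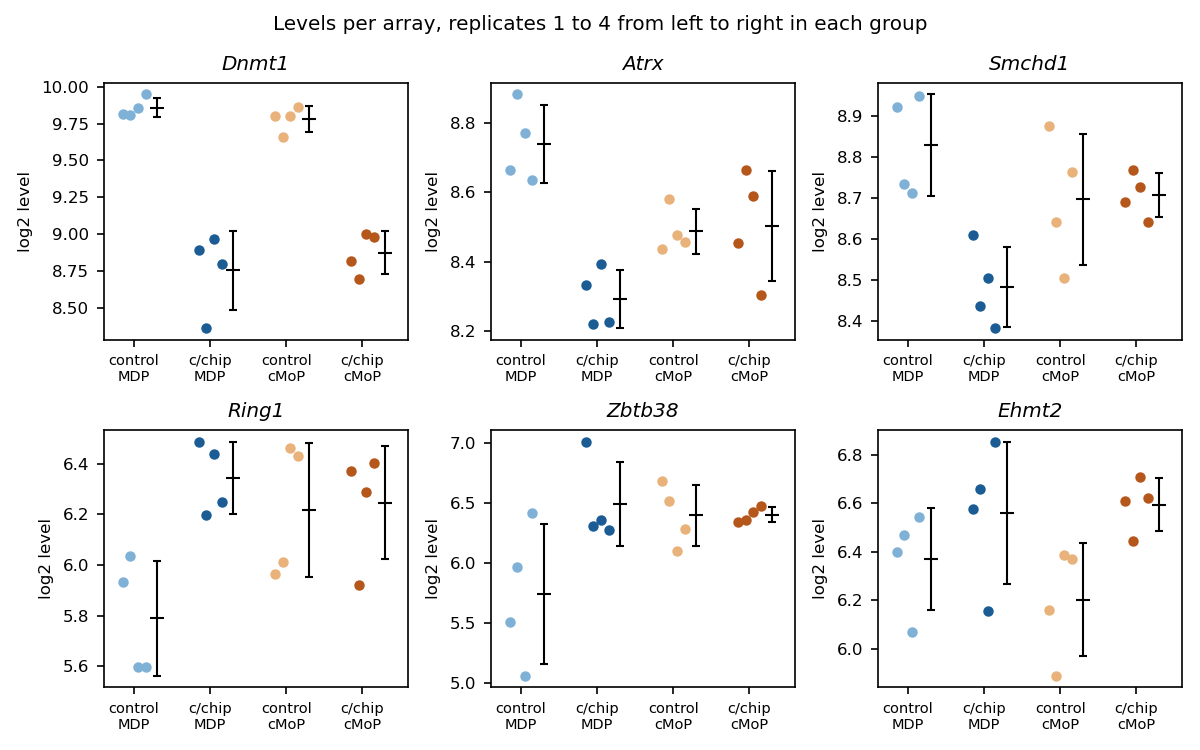
Log2 level (y axis) of Dnmt1, Atrx, Smchd1, Ring1, Zbtb38 and Ehmt2 on each array, replicates 1 to 4 from left to right in each of the 4 groups (x axis). Points are arrays, and bars give the mean and SD over the 4 arrays. Atrx, Smchd1 and Ring1 separate by genotype in MDPs and overlap in cMoPs, while Ehmt2 separates in cMoPs.

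In cMoPs no repressor gene passed for genotype, and most differences were small. Here 0 of 32 passed, where 0.113% of all genes did, and 1 of 32 (3.12%) had an unadjusted p under 0.05, against 4.74% of all genes. Differences ran from -0.22 to 0.39 with a median of 0.01 (all genes -0.01), and 18 were positive and 14 negative. All 32 intervals lay within a 2-fold change in either direction. The median size of a difference was 0.041, against 0.125 over all genes and 0.188 for the same genes in MDPs.

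Ehmt2, the G9a methyltransferase that places mono- and dimethylation on H3K9, was the gene with the smallest p. Its levels were 6.16, 5.89, 6.39 and 6.37 in control cMoPs and 6.61, 6.44, 6.71 and 6.62 in c/chip cMoPs. No arrays overlapped, and the difference was 0.39 (SE 0.164, 1.31-fold, interval 0.05 to 0.74, adjusted p = 0.9998 by limma). It was the single gene of 32 (3.12%) without overlap, against 3.87% of all genes. Mbd1 followed among the positive differences, with 6.97, 6.23, 7.16 and 7.08 in controls and 7.09, 6.88, 7.35 and 7.46 in c/chip cMoPs. Its difference of 0.34 had an interval of -0.20 to 0.87, and the 2 groups overlapped. The largest negative differences were those of Zbtb33 (-0.22, interval -0.62 to 0.18) and Kdm1a (-0.18, interval -0.46 to 0.10), both with overlapping arrays. Zbtb33 read 6.16, 6.12, 6.45 and 6.39 in controls and 6.17, 5.85, 6.13 and 6.10 in c/chip cMoPs. It lies on the X chromosome, and the part of the unequal Xist signal of these arrays was not tested. Kdm1a read 8.50, 8.46, 8.46 and 8.26 against 8.41, 8.11, 8.37 and 8.09.
The genes with the largest differences in MDPs lay near 0 in cMoPs. Atrx differed by 0.02 (interval -0.23 to 0.26), Smchd1 by 0.01 (-0.24 to 0.26), Ring1 by 0.03 (-0.31 to 0.37) and Zbtb38 by 0.01 (-0.50 to 0.51). The full ranges of Atrx, 8.44 to 8.58 in control and 8.31 to 8.66 in c/chip cMoPs, overlapped.

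Whether the genotype difference itself changed between progenitors was tested as the difference in cMoPs minus that in MDPs. This called 0 of 32 genes, where 0.0586% of all genes were called, and 4 of 32 (12.5%) had an unadjusted p under 0.05, against 8.52% of all genes. Those 4 were Atrx (0.46, interval 0.11 to 0.81), Ring1 (-0.52, -1.01 to -0.04), Zbtb38 (-0.75, -1.46 to -0.03) and Smchd1 (0.36, 0.00 to 0.71), with adjusted p of 0.4393, 0.5496, 0.5677 and 0.5846. For these genes a genotype difference in MDPs that is not present in cMoPs was therefore not shown. Each genotype comparison and each cell type comparison shares arrays with the others, so the values below are not independent of those above.

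Between progenitors no repressor gene passed the test, and Cbx3 and Trim28 came nearest, with lower levels on every control cMoP array than on every control MDP array. In controls 0 of 32 genes passed, where 4.56% of all genes did, and 9 of 32 (28.1%) had an unadjusted p under 0.05, against 16.1% of all genes. Differences (cMoPs minus MDPs) ran from -0.90 to 0.66 with a median of -0.11 (all genes -0.00), and 13 were positive and 19 negative. In c/chip mice 0 of 32 passed, where 3.29% of all genes did, and 5 of 32 (15.6%) had an unadjusted p under 0.05, against 15.9%. There the range was -1.37 to 0.34 and the median -0.03 (all genes -0.04). Against c/chip MDP replicate 2 alone, 9 of the 32 c/chip differences turned sign, and the median was 0.02. The genes named for these comparisons were chosen after their values were seen.

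**Figure D3:**
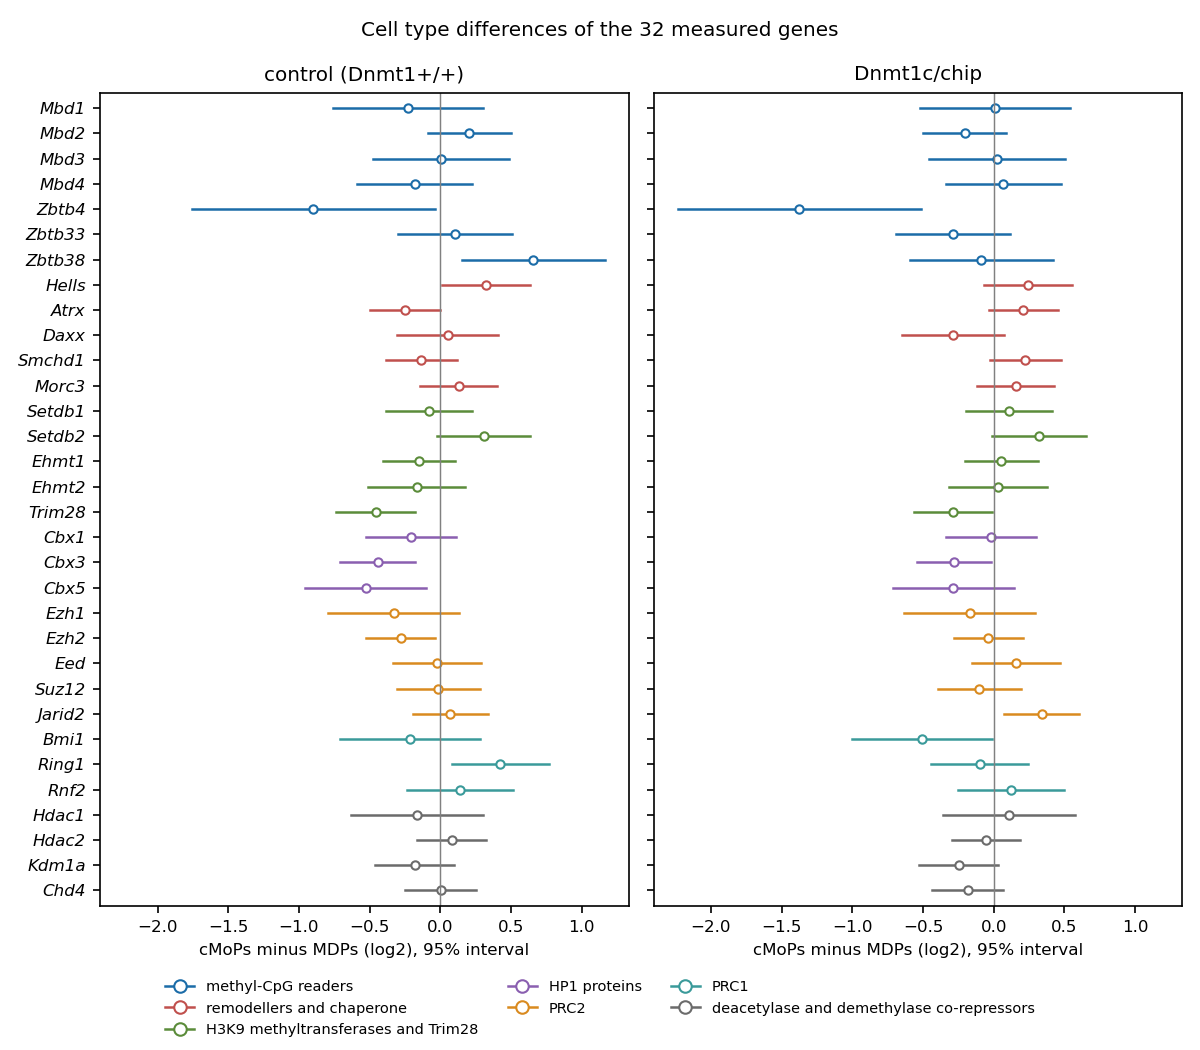
Difference between cMoPs and MDPs (log2, x axis) for the 32 repressor genes (y axis, coloured by role) in control and Dnmt1c/chip mice. Points are means of 4 against 4 arrays, bars are 95% intervals, and open points did not pass the test. Cbx3 and Trim28 lie at -0.44 and -0.46 in controls and at -0.28 and -0.29 in c/chip mice, and Zbtb4 has the most negative value in each, -0.90 and -1.37.

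Cbx3 came nearest to the threshold. Its levels were 10.33, 10.43, 10.51 and 10.27 in control MDPs and 9.82, 9.94, 10.10 and 9.91 in control cMoPs. Those of c/chip mice were 10.22, 10.03, 10.46 and 10.09 in MDPs and 9.91, 9.80, 9.98 and 10.00 in cMoPs. No MDP array overlapped with a cMoP array in either genotype. The difference was -0.44 in controls (SE 0.125, 1.36-fold, interval -0.71 to -0.18, adjusted p = 0.0536 by limma) and -0.28 in c/chip mice (interval -0.54 to -0.02, adjusted p = 0.2806). In controls it passed under 6 of 27 alternatives, with adjusted p from 0.0096 to 0.1543. Against c/chip MDP replicate 2 alone, the c/chip difference was -0.11. Cbx3 has 4 probe sets that disagreed in size, with control differences of -0.44, -0.53, -0.15 and -0.31. In a fit over all single-symbol probe sets, the set at -0.53 passed (adjusted p = 0.0395 by limma). The others, the brightest set among them, did not (0.0526 to 0.7802), so the control result depends on the probe set kept. In c/chip mice the same probe sets differed by -0.28, -0.16, -0.52 and -0.07. Near-identical copies of the gene in the mouse genome make its signal uncertain.

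Trim28 read 9.29, 9.24, 9.44 and 9.44 in control MDPs and 9.01, 8.60, 8.91 and 9.06 in control cMoPs. Its c/chip levels were 9.29, 9.15, 9.48 and 9.15 in MDPs and 9.04, 9.08, 8.84 and 8.96 in cMoPs. Once more no arrays overlapped in either genotype. The difference was -0.46 in controls (SE 0.131, 1.37-fold, interval -0.73 to -0.18, adjusted p = 0.0592 by limma) and -0.29 in c/chip mice (interval -0.57 to -0.01, adjusted p = 0.2915). It passed under 4 of 27 alternatives in controls, and against c/chip MDP replicate 2 alone the c/chip difference was -0.17. Cbx5 read 9.98, 9.48, 10.21 and 9.98 in control MDPs and 9.31, 9.03, 9.70 and 9.51 in control cMoPs. These overlapped through 1 MDP array, and the difference was -0.53 (SE 0.203, interval -0.96 to -0.10, adjusted p = 0.1857). Cbx5 in c/chip mice differed by -0.29 (-0.72 to 0.14), and by -0.03 against c/chip MDP replicate 2 alone. Cbx1 differed by -0.20 in controls and by -0.02 in c/chip mice, where the alternatives ran from -0.22 to 0.07.

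Zbtb4 had the largest difference. Its levels were 3.03, 5.11, 3.94 and 4.80 in control MDPs, 2.99, 3.40, 3.47 and 3.43 in control cMoPs, 5.40, 4.55, 3.55 and 5.36 in c/chip MDPs and 3.54, 3.001, 3.499 and 3.31 in c/chip cMoPs. MDP arrays spread over more than 2 log2 units in controls, and cMoP arrays and the lowest MDP arrays lay near the array medians, so the size of the difference is uncertain. The c/chip groups did not overlap, and the difference was -1.37 (SE 0.407, interval -2.23 to -0.51, adjusted p = 0.0816 by limma), and the alternatives ran from -1.76 to -1.15. It passed without c/chip MDP replicate 3 (-1.76, adjusted p = 0.0149) and without control MDP replicate 1 (adjusted p = 0.0365). In controls the difference was -0.90 (SE 0.407, adjusted p = 0.2827).

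Some genes lay the other way in controls. Zbtb38 was 0.66 higher in control cMoPs (interval 0.15 to 1.16, adjusted p = 0.1542 by limma) and passed without control MDP replicate 4 (0.88, adjusted p = 0.0323), whereas in c/chip mice it differed by -0.09. Ring1 differed by 0.43 in controls (interval 0.08 to 0.77, adjusted p = 0.1811), which came from replicates 3 and 4 (0.85) and not from replicates 1 and 2 (0.00). Hells differed by 0.33 in controls and 0.24 in c/chip mice. Jarid2 differed in c/chip mice by 0.34 (interval 0.08 to 0.61, adjusted p = 0.1773) and had no overlap, reading 7.44, 7.20, 7.54 and 7.41 in MDPs and 7.90, 7.62, 7.73 and 7.71 in cMoPs. Against c/chip MDP replicate 2 alone the Jarid2 difference was 0.53. Groups without overlap numbered 3 of 32 in controls (9.38%, against 10.8% of all genes), namely Atrx, Cbx3 and Trim28. Among c/chip arrays they numbered 6 of 32 (18.8%, against 10.1%), namely Cbx3, Trim28, Zbtb4, Jarid2, Hells and Smchd1.

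**Figure D4:**
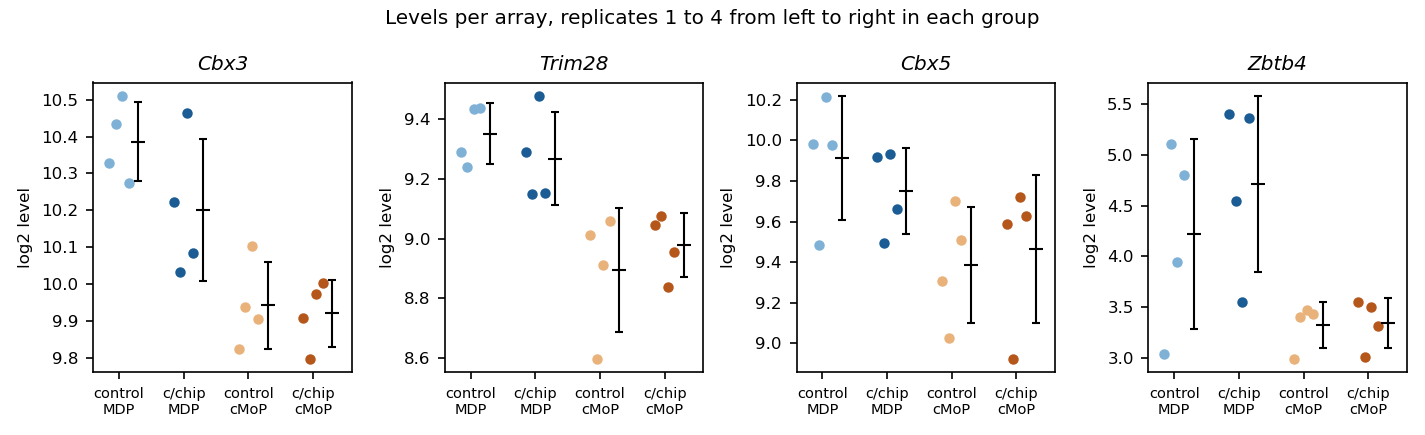
Log2 level (y axis) of Cbx3, Trim28, Cbx5 and Zbtb4 on each array, replicates 1 to 4 from left to right in each of the 4 groups (x axis). Points are arrays, and bars give the mean and SD over the 4 arrays. Cbx3 and Trim28 are higher on every MDP array than on every cMoP array of the same genotype, and Zbtb4 varies on MDP arrays and reaches at most 3.54 on cMoP arrays.

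Partner genes of the same pathways were read from 4 lists. The NuRD, Sin3 and CoREST list had 23 of 26 genes measured, the Polycomb list 20 of 24, the H3K9 and heterochromatin list 19 of 24 and the histone lysine demethylase list 17 of 17. In the MDP genotype comparison 1 of the 79 partner genes passed (1.27%, against 1.95% of all genes). Lmna, which encodes lamins A and C of the nuclear envelope, was at 3.02 in control and 4.18 in c/chip MDPs, a difference of 1.16 (SE 0.233, adjusted p = 0.0176 by limma). It no longer passed without control MDP replicate 3 (adjusted p = 0.0525) or when only MDP arrays were fitted (adjusted p = 0.1462), and the level in controls lay below the array medians. In cMoPs 0 of 79 passed for genotype, against 0.113% of all genes. The list medians in MDPs were 0.07 for NuRD, Sin3 and CoREST, -0.25 for Polycomb, 0.12 for H3K9 and heterochromatin and -0.16 for demethylases, against 0.03 for all genes.

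Between progenitors 3 of the 79 partner genes passed in controls (3.8%, against 4.56% of all genes), and these 3 were lower in cMoPs. Chd3, the NuRD remodeller related to Chd4, differed by -0.87 (SE 0.185, adjusted p = 0.0092 by limma). Phc1, a polyhomeotic subunit of PRC1, differed by -0.79 (SE 0.203, adjusted p = 0.0318). Kdm5b, an H3K4 demethylase, differed by -0.70 (SE 0.159, adjusted p = 0.0150). Kdm5b no longer passed without control cMoP replicate 4 or control MDP replicate 2 (adjusted p up to 0.0573), and Phc1 did not without control cMoP replicate 1, 2 or 3 or control MDP replicate 1 or 2 (up to 0.1029), or when only control arrays were fitted (0.1178). The Chd3 call held in all 27 alternatives.
Among c/chip arrays 5 of 79 passed (6.33%, against 3.29% of all genes), 4 lower and 1 higher in cMoPs. Lmna differed by -1.45 (adjusted p = 0.0018 by limma), Gse1, a CoREST partner, by -0.90 (adjusted p = 0.0056), Phc1 by -0.88 (adjusted p = 0.0212) and Mecom, a zinc-finger regulator of stem cells with H3K9-linked activity, by -1.16 (adjusted p = 0.0216). Kdm4c, an H3K9 demethylase, differed by 1.04 (adjusted p = 0.0056). Phc1 no longer passed here without c/chip cMoP replicate 1, 3 or 4 or c/chip MDP replicate 2 or 4 (adjusted p up to 0.0608), nor Mecom without c/chip cMoP replicate 2, 3 or 4 (up to 0.0857) or when only c/chip arrays were fitted. Against c/chip MDP replicate 2 alone, a comparison with 1 MDP array and so with little power, the differences were -0.73 for Gse1, 0.71 for Kdm4c, -0.96 for Phc1, -1.02 for Mecom and -1.66 for Lmna, and of these only Lmna passed (adjusted p = 0.0019 by limma). Lmna and Mecom lay below the array medians in cMoPs and on some MDP arrays, so the sizes of their differences are uncertain. In controls 3 of 8 erythroid and megakaryocyte genes passed as lower in cMoPs than in MDPs, and 7 of the 8 differences were negative. In c/chip mice 8 of 8 passed as lower. Of all genes, 4.56% passed in controls and 3.29% in c/chip mice, in either direction. The part of these marker genes in the partner gene calls was not tested. A list of proliferation genes, for which 19 of 21 were measured, had 0 calls in every comparison, with means of 9.04 to 9.27 over the 16 arrays. By genotype in MDPs, 5 of the 19 (26.3%) had no overlap, against 7% of all genes, and 6 (31.6%) had an unadjusted p under 0.05, against 14.3%.

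As a group the repressor genes were measured with less scatter than most genes. The SD around the group means had a median of 0.19 over the 32 genes, 0.27 over all genes and 0.29 over the genes whose mean level lay above the median gene's. Their mean level per array lay between 7.56 and 7.84 across all 4 groups. Arrays of Bmi1 and Zbtb4 alone reached the array medians, and for the other 30 genes all arrays lay above 5.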

How the data were processed

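Log2 expression levels, 1 per probe set and array, were used as deposited by the authors. Per the submitters' processing notes the tools were affy, RMA and limma, whose versions are not given there. RMA subtracts background, quantile-normalizes the arrays and combines the probes of a set into 1 log2 value. A further deposited table was left out because its 16 columns could not be tied to samples by name. Groups came from source names, since titles of control cMoPs carry both genotype names. The design text names another array type than the annotation, so probe identity rests on the annotation.

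The table holds 41345 probe sets: 23521 had 1 symbol, 1820 several and 16004 none. Of the single-symbol sets, 23328 were found by Entrez ID in RefSeq (GRCm38.p6) and 0 symbols changed. The brightest probe set per gene was kept (1082 genes had more than 1), leaving 22180 genes. One limma 3.58.1 model (R 4.3.3) estimated 4 group means from all 16 arrays together, with a prior of 4.72 degrees of freedom and Benjamini-Hochberg adjustment over all genes at 0.05. The test was tried on simulated data. Adjusted p, SE and intervals are from this fit, and SDs are over 4 arrays. The number of arrays limits the precision.

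The genes and lists were chosen with earlier results of these data known. Named were Dnmt1, sort markers, Xist and Y-linked genes, genes without overlap in a genotype comparison, the 2 largest differences in each direction there, and up to 4 called genes per list and comparison. Alternatives covered all probe sets, low-level filtering, median centring, quantile normalization, array weights, a trended robust fit, fits of the compared groups alone, omission of each array in turn and replicate number as a block. A further 3 were added after seeing the data: leaving out the 3 mixed c/chip MDP arrays, the Y-linked level as a covariate, and a term that sets replicates 1 and 2 apart from 3 and 4.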

Additional observations from a re-analysis of the deposited data

Results flagged for a closer look

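In 8 of the 128 groups of 4 arrays (32 genes in 4 groups), 1 array stood far from the other 3, with a gap to its nearest neighbour that was a larger share of the group's range than Dixon's 95% critical value. Chance flags about 1 in 20 groups, or 6.4 here. Of the 8, 6 lay on replicate 2 of the cMoPs.

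Hdac1 was highest on c/chip cMoP replicate 2 (8.97, nearest 8.45, a gap of 0.939 of the range). Chd4 (9.37, nearest 9.74, gap 0.833) and Cbx5 (8.92, nearest 9.59, gap 0.837) were lowest on the same array. On control cMoP replicate 2, Morc3 was highest (8.32, nearest 8.10, gap 0.934), while Cbx1 (7.93, nearest 8.30, gap 0.895) and Bmi1 (2.95, nearest 3.74, gap 0.868) were lowest. Zbtb4 was lowest on control cMoP replicate 1 (2.99, nearest 3.40, gap 0.852). Zbtb38 was highest on c/chip MDP replicate 1 (7.01, nearest 6.36, gap 0.883). The 2 cMoP replicate 2 arrays also had the lowest mean correlation with the other arrays of their groups, 0.978 in controls and 0.983 in c/chip mice.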

How the results depend on the processing

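In the genotype comparison in MDPs, where the test called 0 repressor genes, quantile normalization and the trended robust fit each called 1 (Atrx), and leaving out 1 array gave 0 to 1 (Zbtb38 without control MDP replicate 4). In cMoPs and for the interaction every fit called 0. For the cell types in controls, low-level filtering, quantile normalization and the trended robust fit each called 2 (Trim28 and Cbx3), array weights and omission of the mixed c/chip MDP arrays (added after seeing the data, and leaving 1 array in that group) each 1 (Cbx3), the replicate block 1 (Cbx5), and leaving out 1 array 0 to 2. For c/chip cell types, leaving out 1 array gave 0 to 1 (Zbtb4). The cause of these moves was not tested.

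Counts without the mixed arrays below rest on 1 c/chip MDP array, with the spread of the other groups. Over all genes, the genotype count in MDPs was 432, with 264 under array weights, 64 in the fit of MDPs alone, 165 without the mixed arrays and 214 to 505 without 1 array. In cMoPs it was 25, with 60 under array weights and 15 to 28 without 1 array. For cell types in controls it was 1011, with 683 to 1114 without 1 array. For c/chip cell types it was 730, with 482 in the fit of the c/chip arrays alone, 372 without the mixed arrays and 437 to 761 without 1 array. Median centring moved the split there from 399 higher and 331 lower to 507 and 264. The interaction had 13, with 25 without the mixed arrays and 5 to 33 without 1 array.

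Deviations of same-numbered samples correlated at 0.03 to 0.19 between control and c/chip cMoPs, where 3 of 4 pairs exceeded 0.1, and at -0.04 to 0.09 in the other 3 group pairs, where 0 of 12 did. In all, 17 of 32 best matches were with the own number. Each match was the best of 4 candidates, so the share was above the 1 in 4 of chance. Not every pair exceeded 0.1 and no label ties the numbers, so the replicate block was an alternative only. With it the all-gene counts were 389, 26, 1011, 702 and 12. For a repressor gene of median spread, 4 arrays a group could not call differences under about 0.60 in MDPs and 0.83 in cMoPs.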

Other observations

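Ring1 and Zbtb33 split by replicate number within the control groups, in opposite directions in the 2 progenitors. In control MDPs Ring1 was 5.93 and 6.03 on replicates 1 and 2 and 5.60 on both 3 and 4, while in control cMoPs it was 5.97 and 6.01 on replicates 1 and 2 and 6.46 and 6.43 on 3 and 4. Zbtb33, which unlike Ring1 lies on the X chromosome, read 6.46 and 6.53 against 5.75 and 5.97 in control MDPs. In control cMoPs it read 6.16 and 6.12 against 6.45 and 6.39. In controls of both progenitors, replicates 1 and 2 had high Xist (10.79 to 11.36) and replicates 3 and 4 low Xist (3.58 to 4.29). These values were picked after they were seen and were not tested.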
